A study of Mus musculus with 12 samples.

Results

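In cardiomyocytes (CMs) lacking the nuclear receptor corepressor RIP140, 2973 H3K27ac regions each lay across 2 or more regions that were separate in CMs of littermate controls. These bridging KO regions were chosen by the 2 measured region lists, 1 per genotype. A bridging region was a KO region under 10000 bp wide, on chromosomes 1 to 19 or X, that overlapped by at least 1 bp 2 or more separate control regions, all of them under 10000 bp as well. They were 2973 of the 43501 KO regions under that width (6.83%), out of 45517 KO regions of any width on those chromosomes. Together they covered 2920462 bp of gaps, that is, bases that lay between neighboring control regions and in no control region. That these gaps were covered follows from the rule and is given here as a description, with no test.

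H3K27ac, acetylation of lysine 27 of histone H3, was profiled by CUT&RUN, in which an antibody guides a nuclease to cut and release the DNA of marked nucleosomes. Both genotypes carried floxed Nrip1 alleles, Nrip1 being the gene that encodes RIP140. Controls were Cre negative (Nrip1 f/f Cre-) and KO mice were Cre positive (Nrip1 f/f Cre+), with Cre driven by the cardiac Nkx2.5 promoter, which is active from early heart development. CMs came from hearts of mice aged 10 to 12 weeks, with 200000 CMs per experiment and 3 H3K27ac and 3 IgG replicates per genotype. Only 1 list of merged regions per genotype was analyzed, holding regions found in at least 2 of 3 replicates. There was therefore no value per replicate, no error between mice and no sequencing depth, and intervals below are Wilson 95% intervals that cover the counting of regions only.

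The labels were checked in the same lists. KO regions covered 0 bp of the last exon of Nrip1, where control regions covered 2904 bp. All 8 cardiomyocyte marker promoters were at least partly covered in both genotypes, whereas 0 of 6 fibroblast and 0 of 6 macrophage and leukocyte marker promoters were covered in either. Among 6 endothelial marker promoters, 3 were covered in both genotypes, and of 4 smooth muscle and pericyte promoters 2 were covered in controls and 1 in KO. The part of these cells in the bridging was not tested.

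H3K27ac is written mainly by the acetyltransferases p300 and CBP and removed by histone deacetylases, and it marks nucleosomes beside active enhancers and promoters. RIP140 has no known DNA-binding domain of its own. It is recruited by nuclear receptors, among them the estrogen-related receptors (ERRs) and PPARs that drive fatty acid and mitochondrial genes in heart, and it brings CtBP proteins and histone deacetylases with it. Heart enhancers also carry sites for MEF2 and GATA factors and often lie close together, so that neighboring acetylated stretches can be read as separate regions or as 1 long region.

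Of the gaps covered in KO beside or within genes described below, 18 held an exact match to an ERR, MEF2 or GATA motif, and 6 are shown because they show which bases lay without a called region in control and within 1 in KO. The motifs searched, on both strands, were TCAAGGTCA for ERR, AGATAAG for GATA and the MEF2 consensus, so that a match on the minus strand appears as its reverse complement. The 6 shown comprise 2 gaps with an ERR match, 1 with a MEF2 match and 3 with a GATA match, all near genes of the pathway lists. By the first motif matched, the 18 comprised 4 with ERR, 1 with MEF2 and 13 with GATA. Each line holds a 120-base window of the gap from the plus strand of GRCm38, read from RefSeq's copy of that assembly, and capitals mark the motif match. All 6 windows were intronic. A match is a description of the letters and not a binding site.
Actn2 gap, ERR match, chr13:12278001-12278120: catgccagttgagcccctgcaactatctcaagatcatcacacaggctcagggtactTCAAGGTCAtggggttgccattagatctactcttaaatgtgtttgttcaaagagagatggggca
Cacna1c gap, ERR match, chr6:119142267-119142386: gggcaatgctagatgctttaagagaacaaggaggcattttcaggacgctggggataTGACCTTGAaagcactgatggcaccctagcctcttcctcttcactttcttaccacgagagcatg
Pparg gap, MEF2 match, chr6:115412369-115412488: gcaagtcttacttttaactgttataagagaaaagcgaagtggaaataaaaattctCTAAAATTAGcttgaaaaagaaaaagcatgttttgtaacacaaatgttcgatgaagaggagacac
Slc8a1 gap, GATA match, chr17:81701843-81701962: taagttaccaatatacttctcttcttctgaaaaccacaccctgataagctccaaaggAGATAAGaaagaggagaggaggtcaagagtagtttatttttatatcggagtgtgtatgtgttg
Pfkp gap, GATA match, chr13:6645922-6646041: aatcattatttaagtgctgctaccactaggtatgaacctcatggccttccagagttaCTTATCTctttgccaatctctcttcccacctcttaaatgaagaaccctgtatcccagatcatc
Ctbp2 gap, GATA match, chr7:133041935-133042054: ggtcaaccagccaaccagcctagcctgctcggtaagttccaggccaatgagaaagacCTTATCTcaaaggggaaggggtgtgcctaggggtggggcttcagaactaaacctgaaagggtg

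The Actn2 window lay in a gap of 3101 bp and the Slc8a1 window in a gap of 3423 bp. The other windows came from gaps of 1402 bp (Ctbp2) to 2405 bp (Pparg), so that each window is a small piece of the stretch newly covered. How often such matches occurred over all gaps is given below with the values for gaps that were not covered.

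Most bridging KO regions joined 2 neighbors. In all, 2757 (92.7%, 91.7% to 93.6%) overlapped exactly 2 control regions, 205 (6.90%) overlapped 3 and 11 (0.370%) overlapped 4. The newly covered gap length per bridging region had a median of 764 bp (quartiles 557 and 1187 bp) and ranged from 7 to 7734 bp. It reached 500 bp in 2548 (85.7%), 1000 bp in 976 (32.8%), 2000 bp in 224 (7.53%) and 3000 bp in 66 (2.22%). The bridging regions had a median width of 5652 bp (from 876 bp), against 2335 bp for the 29389 KO regions that overlapped exactly 1 control region, and the gaps made up a median of 15.8% of that width. Of all bases in bridging regions, 73.5% lay in the control regions they joined, 17.1% in the gaps between them and 9.44% beyond the outermost of them.

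**Figure D1:**
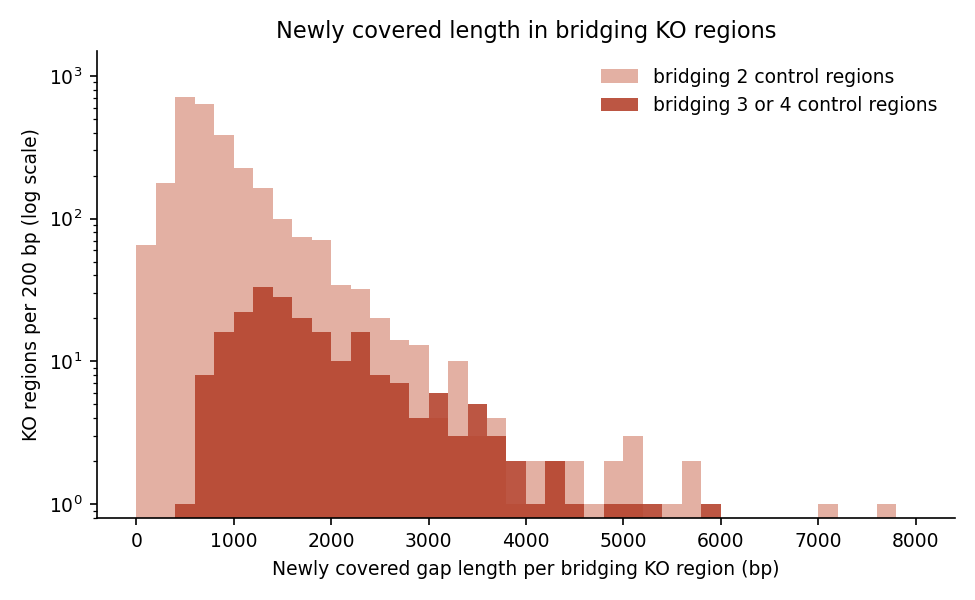
Histogram of the newly covered gap length (bp, 200-bp bins) over the 2973 bridging KO regions, with counts on a log axis. Regions joining 2 control regions are pale and those joining 3 or 4, drawn over them, are dark. Most values lie near the median of 764 bp, and 66 regions reach 3000 bp or more.

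Joining did not always mean enclosing. In 547 bridging regions (18.4%, 17.0% to 19.8%) all the joined control regions lay wholly inside the KO region, and 544 (18.3%) extended beyond the outer control region on both sides. The 6085 joined control regions spanned 16659675 bp, of which 14.8% lay in no KO region. In 674 bridging regions (22.7%) a joined control region itself bridged 2 or more KO regions, so the borders were staggered in both directions there. Counted apart from this, 174 bridging regions (5.85%) shared a control region with a neighboring bridging region and are not separate events. They can also be among the 674, so the 2 counts do not add up. The number that ends each region name was read as the number of replicate peaks merged into it, which the sources used here do not state. Read so, 1262 bridging regions (42.4%) were merged from 4 or more, against 10.8% of all KO regions under the width limit, and the part of merging in the bridging was not tested.

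The reverse also occurred. With the genotypes exchanged, 1785 of 52086 control regions under 10000 bp (3.43%) bridged 2 or more KO regions and covered 1559942 bp of KO gaps. The KO count was 1.67 times the control count and the newly covered length 1.87 times. Gaps covered in KO made up 6.94% of all bases in KO but not control regions, and gaps covered in control made up 3.99% of the bases in control but not KO regions. There were more control regions than KO regions to be joined. On the chromosomes analyzed, the KO list held 45517 regions over 154 Mb and the control list 53750 over 151 Mb. KO regions were thus wider on average, and the part of width in the excess was not tested. With equal numbers of the widest regions in both lists the counts were 2441 and 1785, a ratio of 1.37. With no replicate values, whether this excess differs from the variation between mice could not be tested.

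Set against the gaps available, the share bridged was higher in control for gaps under 500 bp and higher in KO in each longer class. The intervals count gaps from 1 merged list per genotype and hold no variation between mice. Whether the shares differ between genotypes was not tested. Of 26866 control gaps under 10000 bp between regions under that width, 3200 (11.9%, 11.5% to 12.3%) were covered end to end by 1 KO region. Of 19871 such KO gaps, 1860 (9.36%, 8.96% to 9.77%) were covered end to end by 1 control region. Gaps under 500 bp were bridged at 45.7% (42.7% to 48.7%) in KO and 47.4% (43.4% to 51.4%) in control.

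Gaps of 500 bp to under 1000 bp were bridged at 34.2% (32.9% to 35.5%) in KO against 30.5% (29.0% to 32.0%) in control. For 1000 bp to under 2000 bp the values were 14.9% (13.9% to 15.9%) against 10.9% (9.94% to 12.0%). For 2000 bp to under 5000 bp they were 2.11% (1.82% to 2.45%) against 1.21% (0.966% to 1.52%). The longest class, from 5000 bp to under 10000 bp, had 8 of 7584 control gaps bridged in KO (0.105%, 0.0535% to 0.208%) and 0 of 6120 KO gaps bridged in control, with an upper limit of 0.0627%.

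**Figure D2:**
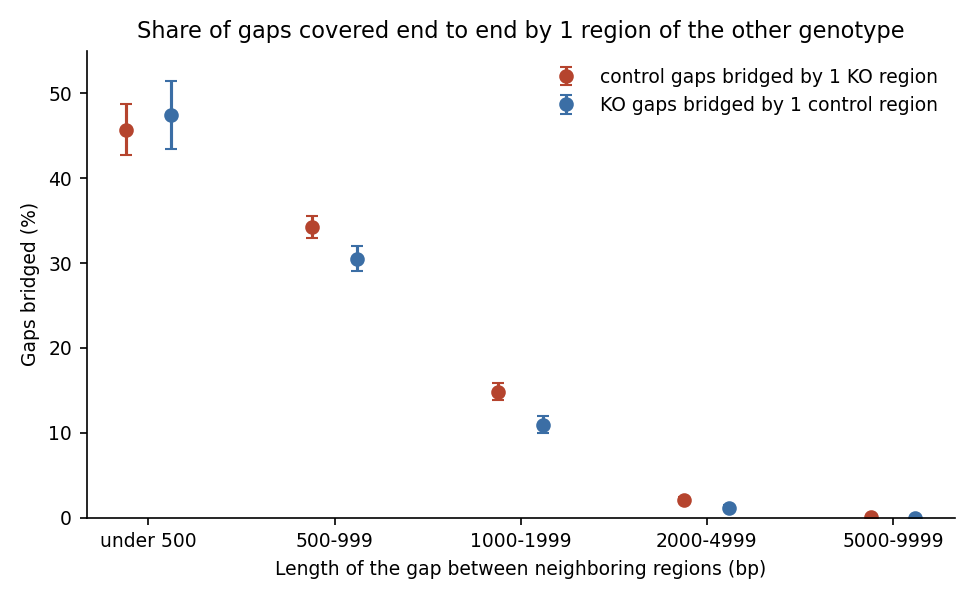
Share of gaps (%) covered end to end by 1 region of the other genotype, by gap length (bp), with Wilson 95% intervals. Red points are control gaps covered by a KO region and blue points KO gaps covered by a control region, and the blue point is the higher under 500 bp, and the red point is the higher in each longer class.

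At Diaph1, which encodes a formin that nucleates actin filaments, 1 KO region of 9553 bp on chromosome 18 (37926442 to 37935994) reached across a gap of 7734 bp between control regions of 1526 and 1885 bp. At Spen, the gene for a corepressor that works in Notch signaling, a KO region of 9125 bp (chr4:141531246-141540370) covered a gap of 7095 bp. In both, the gap was most of the KO region, with 81.0% of it at Diaph1 and 77.8% at Spen. A KO region of 7320 bp at Nrp1, a coreceptor for VEGF and semaphorins, joined 3 control regions across 5888 bp. The regions at Arhgef28, a guanine nucleotide exchange factor gene, and Map2k4, a kinase upstream of JNK, covered gaps of 5602 and 5565 bp.

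At Gpd1, encoding the cytosolic glycerol-3-phosphate dehydrogenase that links glycolysis to glycerolipid synthesis, a KO region of 6747 bp (chr15:99712212-99718958) covered 5128 bp between control regions of 809 and 767 bp. The remaining 4 of the 10 regions with the most newly covered bp lay nearest to noncoding genes or a pseudogene. Their closest protein-coding genes were Clmp (5331 bp), Tmem120b (5197 bp) and, much further away, 1810010D01Rik (5613 bp, 120140 bp away) and Snx19 (5093 bp, 141605 bp away). Of the 11 regions that joined 4 control regions, the 5 with the most newly covered bp are named here. Among protein-coding genes they lay closest to Abhd17c (4026 bp), Cap2 (3122 bp), Akap2 (2954 bp), Jarid2 (2842 bp) and Rcan2 (2721 bp). Jarid2 encodes a cofactor of the Polycomb repressive complex and Rcan2 an inhibitor of calcineurin.

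**Figure D3:**
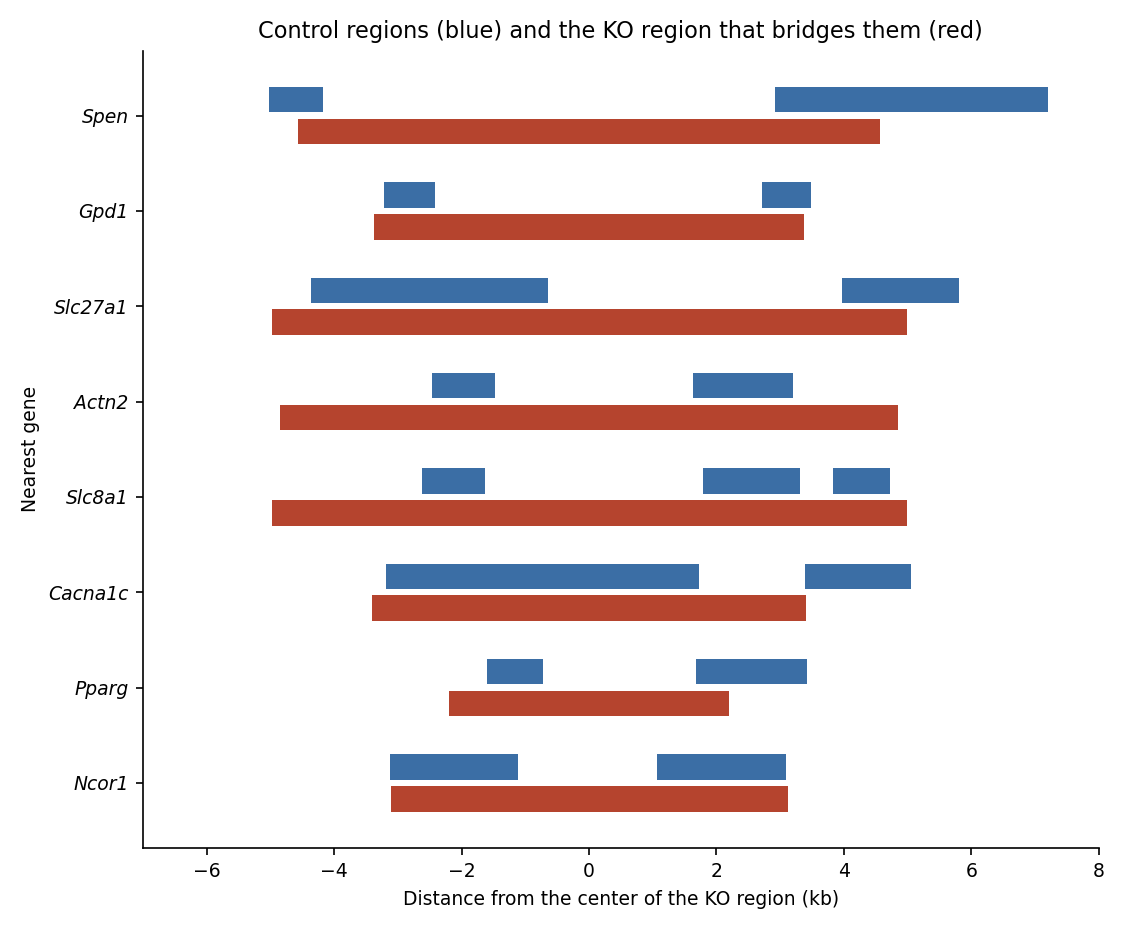
Control regions (blue) and the KO region that bridges them (red) at 8 genes, with the distance from the center of the KO region in kb on the horizontal axis. The control regions at Actn2 and Slc8a1 lie wholly inside the KO region, whereas at Spen, Slc27a1, Cacna1c and Pparg a control region reaches beyond it.

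The bridging regions were mostly intronic. By the annotation at their center, 61.6% (59.9% to 63.4%) were intronic, 19.5% intergenic, 9.89% (8.87% to 11.0%) at promoters (1000 bp before to 100 bp after a transcription start site, or TSS), 4.47% at transcript ends and 3.70% exonic. KO regions that overlapped exactly 1 control region, weighted to the same widths, were 56.0% intronic and 13.9% promoter. The 1785 control regions that bridged KO regions were 65.0% intronic and 6.78% promoter. From the center of a bridging KO region the nearest TSS of any gene was a median of 6962 bp away, and the nearest protein-coding TSS 12503 bp.

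The gaps themselves were set against the 8741 control gaps that no KO base touched, weighted to the same length classes. A further 55.6% of the 26866 control gaps were covered in part by KO regions and are in neither set. Bridged gaps were centered on promoters in 6.19% (5.40% to 7.08%) and on intergenic sequence in 21% (19.6% to 22.4%), against 3.33% and 25.6% of the untouched gaps. Intronic shares were 63.4% (61.8% to 65.1%) and 62.4%. A protein-coding TSS lay in 148 bridged gaps (4.63%, 3.95% to 5.41%), against 2.06% of the untouched gaps. Bridged gaps thus held promoters at a share between the untouched gaps and the control regions they separated, 10.4% of which were centered on promoters.

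**Figure D4:**
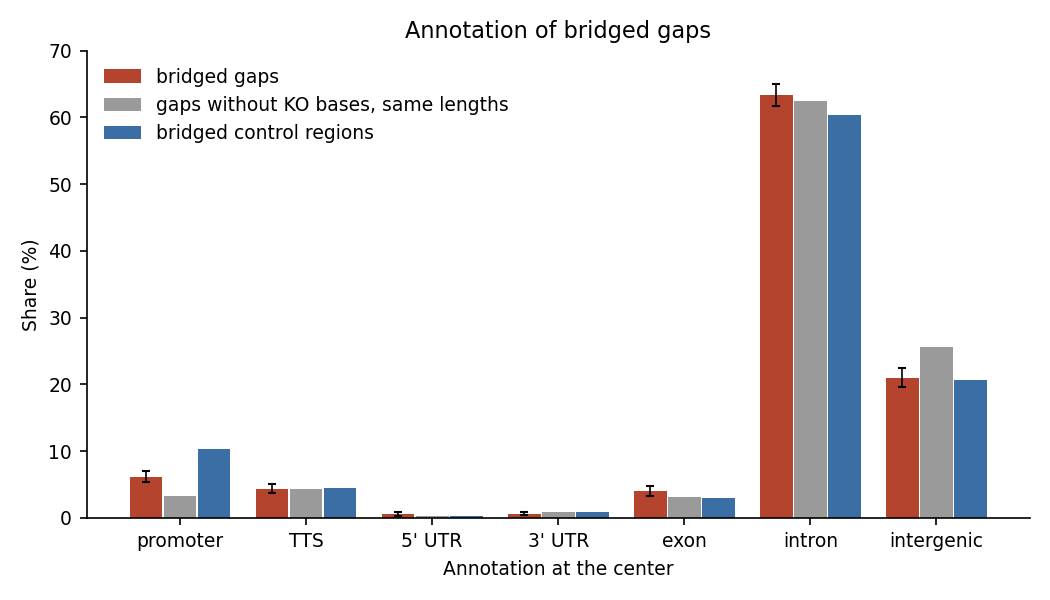
Share (%) of gap or region centers in each annotation class for the 3200 bridged gaps (red, with Wilson 95% intervals), untouched control gaps weighted to the same lengths (gray) and the joined control regions (blue). Promoters were 6.19%, 3.33% and 10.4% of the respective sets, and introns made up most of each.

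Base composition was read in the same sets. CpG dinucleotides numbered 13.2 per kb in bridged gaps, 10.1 per kb in untouched gaps of the same lengths and 13.6 per kb in the joined control regions. GC content was 45.2%, 44.0% and 45.2%, and soft-masked repeats made up 24.9%, 27.6% and 20.5% of the bases.

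For the 4 exact motifs, the shares of untouched gaps with a match lay within the counting intervals of the bridged gaps. An ERR match as in the Actn2 and Cacna1c windows above was present in 75 bridged gaps (2.34%, 1.87% to 2.93%) and in 2.37% of untouched gaps of the same lengths. MEF2 matches were present in 53 (1.66%, 1.27% to 2.16%) against 1.51%, and GATA matches in 350 (10.9%, 9.90% to 12.1%) against 11.5%. The nuclear receptor half-site AGGTCA, which also lies within the ERR motif, was present in 1318 (41.2%, 39.5% to 42.9%) against 40.6%. A relaxed MEF2 consensus lay outside its interval, with a match in 460 bridged gaps (14.4%, 13.2% to 15.6%) against 16.2% of untouched gaps. Per kb, ERR matches numbered 0.0257 in bridged gaps and 0.0368 in the joined control regions, and MEF2 matches 0.0185 and 0.0360. In untouched gaps of the same lengths these densities were 0.0256 and 0.0153. The half-site numbered 0.680 per kb in bridged gaps, 0.635 in untouched gaps and 0.721 in the joined control regions.

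In 147 bridging regions (4.94%, 4.22% to 5.78%) a protein-coding TSS itself lay in a newly covered gap. The longest of these gaps were at Spen and Gpd1, described above, followed by Cxxc4 (4535 bp), an inhibitor of Wnt signaling, Pkn2 (3746 bp), a kinase related to protein kinase C, and Hey1 (2955 bp), a Notch target that represses transcription in the developing heart. At Hey1 a KO region of 4862 bp (chr3:8665453-8670314) lay over the space between control regions of 2649 and 1421 bp. A gap with a TSS was also found at Notch4 (2046 bp), a Notch receptor gene, and at Mef2c, where gaps of 751 and 1110 bp were covered. Notch4 was picked out after its values were seen.

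By nearest TSS, bridging regions were assigned to 2477 of the 19371 genes with a KO region (12.8%), and to 1504 of the 11430 protein-coding ones (13.2%). Of these genes 2108 had 1 bridging region, 279 had 2, 64 had 3 and 26 had 4 or more. The most were at Akap2, a kinase-anchoring protein gene, with 7 of its 15 KO regions and 7710 bp newly covered. Dlc1, a GTPase-activating protein gene, had 6 of 28 (7156 bp), and Ext1, which extends heparan sulfate chains, 6 of 24 (5220 bp). Magi1, a junction scaffold gene, had 5 of 22 (7457 bp) and Cdkal1, a tRNA-modifying enzyme gene, 5 of 26 (5206 bp). Some of these regions shared a control region with a neighboring one and are not separate events. The shared control regions were 5049 bp wide at Akap2, and 2871 and 7717 bp wide at Cdkal1.

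The gene lists were read in 2 ways, as the share of genes with a bridging region and as the share of the lists' KO regions that bridged, since a gene with many regions has more chances. The gene counts below are to be set beside the 12.8% of all genes with a KO region. They are not adjusted for the number of regions per gene. Wide KO regions also bridged more often, from 0.0921% of those under 1000 bp to 42.8% of those of 9000 bp or wider. For each list with a KO region the share that all KO regions of the same widths bridged is therefore given beside its own. No list was tested, and for each of the 14 functional lists the interval of its own share included the share at the same widths. Of these 14 lists, 9 had a share of bridging regions above the 6.83% of all KO regions, which is not adjusted for width. Above the share at the same widths lay only corepressors and histone deacetylases, calcium cycling, ion channels, cardiac transcription factors and intercalated disc.

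Corepressors and histone deacetylases, the partners of RIP140 and the enzymes that remove acetylation, had the highest share. Of their 88 KO regions 14 bridged (15.9%, 9.72% to 24.95%), against 10.2% for all KO regions of the same widths. A bridging region was found at 9 of 16 genes (56.3%, against 12.8% of all genes, not adjusted for regions per gene). Ncor1, a nuclear receptor corepressor that works with histone deacetylases, had a KO region of 6232 bp that joined control regions of 2000 and 2012 bp across 2194 bp. Ctbp2, a corepressor of the family that binds RIP140, had 2 gaps covered, of 1402 and 607 bp, the longer with the GATA match shown above. Others of the list were Tbl1xr1 (1262 bp), Hdac9 (1244 bp), Tbl1x (1169 bp), Hdac2 (1085 bp), Sin3a (635 bp) and Hdac4 (412 bp).

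Calcium cycling genes had 13 of 91 KO regions bridging (14.3%, 8.54% to 22.9%, against 9.64% at the same widths), in 8 of 14 genes (57.1%, against 12.8% of all). At Slc8a1, the sodium-calcium exchanger gene, a KO region of 9969 bp (chr17:81697572-81707540) enclosed 3 control regions of 983, 1520 and 889 bp and covered 3423 and 526 bp between them. Cacna1c, the pore subunit of the L-type calcium channel, had 3 bridging regions covering 1665, 1297 and 656 bp, the first of which holds the ERR match shown above. Camk2d, the main cardiac calcium/calmodulin-dependent kinase, also had 3, covering 913, 836 and 347 bp. The last 2 shared a control region of 8658 bp, wider than either KO region, and are not separate events. Smaller totals were found at Cacnb2 (1602 bp), Jph2 (1352 bp), Ryr2 (604 bp), Itpr2 (558 bp) and Asph (156 bp).

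Ion channel and pump genes had 10 of 74 bridging (13.5%, 7.51% to 23.1%, against 10.8% at the same widths), in 6 of 15 genes (40%, against 12.8% of all). Kcnd2, a gene for a channel of the transient outward potassium current, had 733 bp covered. Kcnj2, an inward rectifier gene that the study also examined, had 625 bp covered, and Abcc9, a regulatory subunit of ATP-sensitive potassium channels, 533 bp.

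Cardiac transcription factor genes had 11 of 82 bridging (13.4%, 7.66% to 22.4%, against 10.6% at the same widths), in 6 of 14 genes (42.9%, against 12.8% of all). Tead1, a Hippo pathway effector, had 4, covering 1816, 783, 638 and 618 bp. Gata6 had 3, covering 1961, 599 and 445 bp, the furthest of them 174107 bp from its TSS. Mef2c, whose product binds the MEF2 motif, had 1 that joined 3 control regions around its promoter and covered 1861 bp in all. Mef2a (780 bp), Gata4 (528 bp) and Hopx (293 bp) had 1 each.

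Sarcomere genes had 7 of 72 bridging (9.72%, 4.79% to 18.7%), below the 11.0% at the same widths, in 6 of 24 genes. Actn2, the gene for the Z-disc protein alpha-actinin, had the longest newly covered gap. There a KO region of 9698 bp (chr13:12272250-12281947) enclosed control regions of 984 and 1568 bp across 3101 bp and reached 4045 bp beyond them in all. Another Actn2 region joined 3 control regions and covered 1981 bp. At Tnni3, encoding adult cardiac troponin I, 1740 bp between control regions of 8571 and 4957 bp were covered by a KO region of 3861 bp, so that there the control regions were the wider ones. Intercalated disc genes had 5 of 59 (8.47%, 3.67% to 18.4%, against 8.24% at the same widths), among them the catenin genes Ctnna1 (1383 bp), Ctnna3 (1027 bp) and Ctnnb1 (952 bp).

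The 5 metabolic lists had shares below those of all KO regions of their widths, which their intervals included. Fatty acid uptake and oxidation genes had 4 of 41 KO regions bridging (9.76%, 3.86% to 22.5%), against 12.7% at the same widths, in 3 of 20 genes. The longest was at Slc27a1, encoding the fatty acid transport protein FATP1, where a KO region of 9966 bp (chr8:71566758-71576723) covered 4622 bp between control regions of 3711 and 1836 bp. Acacb, which makes the malonyl-CoA that restrains fatty acid entry into mitochondria, had a KO region joining 3 control regions across 703 and 780 bp. Hadh, a beta-oxidation enzyme gene, had 2, covering 924 and 525 bp, which shared a control region of 8065 bp.

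Tricarboxylic acid cycle genes had 3 of 37 bridging (8.11%, 2.80% to 21.3%, against 11.5% at the same widths), among them regions at Suclg2 (1315 bp) and Fh1 (254 bp). Glucose uptake and glycolysis genes had 4 of 39 (10.3%, 4.06% to 23.6%, against 13.2% at the same widths), at Ldhb (1898 bp), Pfkp (1462 bp), Mpc2 (1079 bp) and Pfkm (527 bp). The triglyceride list had 2 of 39 (5.13%, 1.42% to 16.9%, against 13.9% at the same widths), both at Lpin1, a phosphatidate phosphatase gene, with 1046 and 534 bp. Branched-chain amino acid breakdown had 1 of 43 (2.33%, 0.412% to 12.1%, against 6.90% at the same widths), at Bckdha (588 bp).

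The ERR, PPAR and PGC-1 regulators, through which RIP140 is best known to act, had 5 of 81 bridging (6.17%, 2.67% to 13.6%, against 6.66% at the same widths), in 4 of 15 genes. Pparg had 2. A KO region of 4392 bp (chr6:115410757-115415148) covered the longer gap, of 2405 bp, with the MEF2 match shown above. Rxra, the shared partner of the PPARs, had 1375 bp covered across 3 control regions, Ppard 638 bp and Perm1, a muscle coregulator gene, 580 bp. Adrenergic and cyclic AMP genes had 7 of 128 (5.47%, 2.67% to 10.9%, against 8.07% at the same widths), the longest at Akap13 (3093 bp), Pde4b (1474 bp) and Adra1b (1137 bp). Stress response genes had 2 of 40 (5.00%, 1.38% to 16.5%, against 9.96% at the same widths), at Xirp2 (622 bp) and Fhl2 (598 bp).

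**Figure D5:**
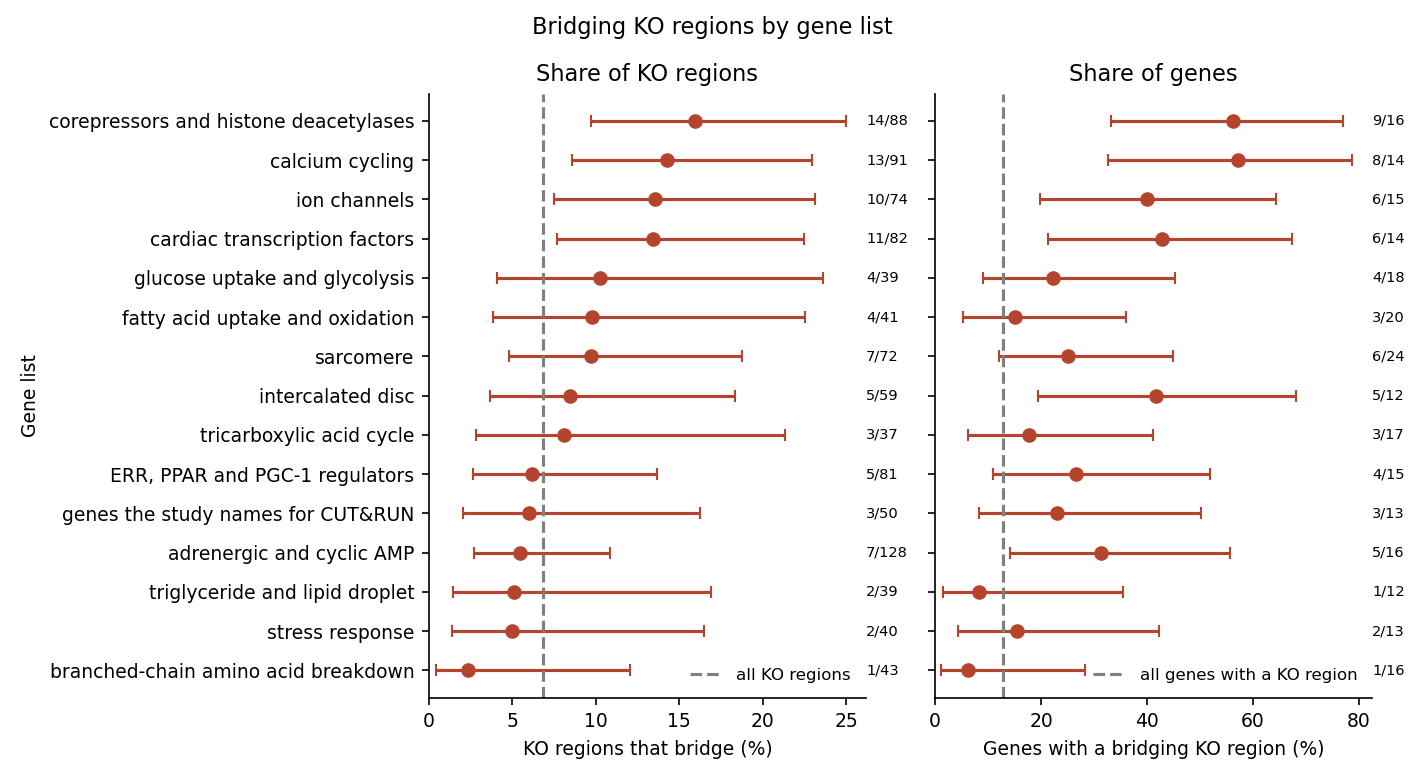
Left, share (%) of the KO regions nearest to each list's genes that bridged, and right, share (%) of list genes with at least 1 bridging region, with Wilson 95% intervals and counts at the right edge. Dashed lines mark all KO regions (6.83%) and all genes with a KO region (12.8%), and the intervals of 4 lists (corepressors and histone deacetylases, calcium cycling, ion channels, cardiac transcription factors) lie above the line at left. That line is not adjusted for region width, and these 4 intervals include the shares at the same widths.

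Of 13 genes that the study examined for H3K27ac, 3 had a bridging region nearest to them, namely Acacb, Suclg2 and Kcnj2, and 3 of the 50 KO regions of these genes bridged (6%, 2.06% to 16.2%, against 11.1% at the same widths). These genes were picked by the study on these samples and are not independent of them. Counting only protein-coding genes added Adrb1, a beta-adrenergic receptor gene, with 710 bp at 43647 bp from its TSS, and Gpam, which starts glycerolipid synthesis, with 422 bp at 410 bp from its TSS. Cpt1a, Fabp3, Acsm5, Echdc2, Tcap, Adra1a, Acot7 and Dgat2 had no bridging region under either assignment. Nrip1 itself had none by the nearest TSS of any gene, and 2 covering 1484 bp when only protein-coding genes were counted. These 2 shared a control region of 4119 bp and are not separate events. They were intergenic, 160439 and 152643 bp from the Nrip1 TSS. Both lay nearer to the noncoding gene Gm30726, at 14529 and 22325 bp. Endothelial markers had 2 of 33 KO regions bridging (6.06%, 1.68% to 19.6%, against 5.11% at the same widths), at Pecam1 (1145 bp) and Tek (732 bp). Fibroblast markers had 0 of 4 (against 5.85% at the same widths) and smooth muscle and pericyte markers 0 of 5 (against 7.76%). Macrophage and leukocyte markers had no KO region. Cardiomyocyte markers had 2 of 19 (10.5%, 2.94% to 31.4%, against 7.98% at the same widths), at Tnni3 and Ryr2.

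The bridging regions were spread over all chromosomes analyzed, from 5.22% (3.87% to 7.01%) of KO regions on the X chromosome to 7.74% (6.56% to 9.12%) on chromosome 18. At the width limit, the widest bridging regions were nearest to Dhrs7c (1 bp under the limit, 1723 bp newly covered), Gm9022 (9990 bp wide, 727 bp) and Gm12691 (9988 bp wide, 659 bp). Just outside, Vps26c (10002 bp wide, 810 bp), Snai2 (10006 bp wide, 2429 bp) and Hsf2bp (10006 bp wide, 569 bp) would have met the rule but for their width, as would 682 KO regions in all.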

How the data were processed

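CUT&RUN was done on CMs of 2 genotypes with H3K27ac antibody or IgG, 3 replicates each, 12 samples in all, read as paired ends of 40 bp. Alignment was to GRCm38 (bowtie2 2.4.2), followed by duplicate removal (samtools). The authors then called enriched regions in each replicate over IgG in the histone style of Homer 4.11.1 and merged them, keeping regions found in at least 2 of 3 replicates. Replicates were thus pooled before deposit. The deposited lists give start and end positions in bp (an interval, neither signal nor count) and a score that is 1 in every row and was not used. Depth is unknown. How neighboring or overlapping peaks of the replicates were merged can change which regions appear joined.

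Groups follow the genotype and antibody labels. Overlaps, gaps and annotation (GENCODE M21, all transcripts) were computed with Python 3.11.15, numpy 2.4.6 and pysam 0.24.0, and the overlap code was tested on simulated lists, where it recovered 844 of 844 planted bridges. A gap lies between consecutive joined control regions. Untouched control gaps were weighted to the gap length classes, and KO regions with 1 control region to the widths, of the bridging regions. Genes were assigned by the TSS nearest to the center of a region. Genes named are those of the 10 regions with the most newly covered bp, the 5 joining most control regions, up to 3 genes per list by newly covered bp (further list genes are given by total only), the 5 longest gaps holding a protein-coding TSS, the 5 genes with most bridging regions, genes the study examined and the 3 regions on either side of the width limit. Some genes and gaps that these rules name are not reported here. Sequence windows came from gaps on chromosomes other than 18. Members and lists were chosen with earlier results of these data known. Regions on Y and other sequences (18 KO, 25 control) were left out, and 0 of them would bridge. Overlap, width, merging, annotation and motif settings were varied.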

Additional observations from a re-analysis of the deposited data

How the results depend on the processing

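The number of bridging KO regions exceeded the number of bridging control regions under each setting in which both were counted. Requiring 50% of each control region inside gave 1977 KO and 1005 control regions, with 1917997 bp newly covered. Merging regions less than 1000 bp apart first gave 795 and 395, with 1353824 bp and a median of 1415 bp. Without a width limit the newly covered length was 5108562 bp and the control count 2772, and with a limit of 5000 bp the values were 1045 and 583, with 862251 bp. Leaving out regions read as merged from 4 or more peaks, a setting chosen after seeing the data, gave 1711 KO regions with 1599519 bp, and 1061 control regions. A minimum overlap of 100 bp, leaving out regions under 1000 bp and equal numbers of the widest regions kept the counts within 1.5 times. With equal numbers, also chosen after seeing the data for this measure, 12.3% of control gaps and 9.36% of KO gaps were bridged.

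Promoters made up 17.1% of bridging regions when drawn from 2000 bp before to 500 bp after a TSS, and 7.40% with protein-coding TSSs only. A TSS of any gene lay in a gap of 6.39%, and after merging a protein-coding TSS did in 6.16%. Allowing 1 mismatch gave 0.141 ERR matches per kb of bridged gap, against 0.126 in untouched gaps of the same lengths, and a relaxed MEF2 consensus 0.191 against 0.199. No paired analysis was possible because the lists hold 1 merged set of regions per genotype. Leaving out replicates was not possible for the same reason.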
